A study of Mus musculus and Homo sapiens with 9 samples.

Results

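The genes described here form the calcium and diacylglycerol node around phospholipase C-gamma: PLCG1, PLCG2, ITPR1, ITPR2, ITPR3, RASGRP1, PRKCQ, STIM1, ORAI1 and DGKA. They were chosen by name, and all 10 had a row among 56105 annotated genes of the human table and, in mouse spelling, among 42462 of the mouse table. J.gamma1 is a T-cell acute lymphoblastic leukemia line, a Jurkat derivative known for lacking PLC-gamma1 protein. The node's RNA was compared with controls where the transcriptional cofactor IRF2BP2 was reduced by a hairpin in J.gamma1 cells or knocked out in mouse cells. The cells were stably transduced with a lentiviral pLKO.1 shRNA under puromycin selection, as sh-NC (control hairpin, 2 libraries) or sh-IRF2BP2 (2 libraries, hairpin not named in the labels). The mouse libraries were splenic CD3+ T cells, sorted with magnetic beads, from Vav-iCre+/-;Irf2bp2 fl/fl knockouts (2 libraries) and from controls (3 libraries), which the labels call wild type and the study's methods describe as floxed animals without Cre. Vav-iCre is active in the whole blood lineage, so Irf2bp2 was also deleted in cells other than T cells, and animals of this cross were killed when 6 weeks old, an age that the labels do not tie to these libraries. No source used here says whether libraries of a group came from separate cultures or animals, so the p-values measure only the spread between these libraries.

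When a T cell receptor is engaged, the kinases LCK and ZAP70 phosphorylate the adaptor LAT, which with LCP2 (SLP-76) and GRAP2 (GADS) brings PLC-gamma1 to the membrane. The enzyme splits the membrane lipid PIP2 into IP3, which opens the IP3 receptors (ITPR genes) of the endoplasmic reticulum, and diacylglycerol, which recruits RASGRP1 and protein kinase C-theta (PRKCQ). Store emptying is sensed by STIM1, which opens the ORAI1 channel, whereas diacylglycerol kinase alpha (DGKA) ends the lipid signal by phosphorylating it.

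RASGRP1, the exchange factor that turns diacylglycerol into active RAS in T cells, fell to about 0.515 of its sh-NC level in the knockdown and was the only member that passed the test in either table. The other members of the node in J.gamma1 cells had differences that did not pass, with PLCG1, the 3 IP3 receptors, STIM1, ORAI1 and PRKCQ higher and PLCG2 and DGKA lower on average. In mouse T cells no member passed. RNA levels say nothing of protein: PLCG1 RNA was abundant in J.gamma1 cells although the line is known for lacking the protein.

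IRF2BP2, the targeted gene, had 204 and 199 CPM (counts scaled by library size, on TMM-scaled library sizes) in sh-NC and 79 and 93.8 in sh-IRF2BP2, and Irf2bp2 had 4145, 4594 and 1915 counts in the mouse controls and 0 and 0 in the knockouts. Library totals ranged from 26648204 to 31120236 counts in J.gamma1 cells and from 16668577 to 37177523 in mouse cells, control replicate 3 being the shallowest. The summed level of 15 T cell marker genes was 2510 and 2620 CPM in sh-NC and 3040 and 3100 CPM in sh-IRF2BP2, with 3 of the 15 called higher and 2 lower. Their part in the members' values was not tested. In the mouse the T cell marker sum was 7690 to 8230 CPM in controls and 5870 to 6080 CPM in knockouts. None of the 15 was called, but Cd8b1 had an adjusted p of 0.0211 in edgeR. Its log2 fold change of -0.94 fell short of the 1 required. Only Cd28 and Bcl11b had positive log2 fold changes, at 0.09 and 0.03. Erythroid markers summed to 591 to 2260 CPM in controls and 4370 to 6180 CPM in knockouts. Of the 10 with a row, 5 were called higher. In such bulk samples fewer T cells and less RNA per T cell cannot be told apart.

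A gene was called when edgeR's quasi-likelihood test gave an adjusted p (Benjamini-Hochberg over all genes tested) below 0.05 and its log2 fold change was 0.5 or more in either direction in J.gamma1 cells, or 1 or more in mouse cells. In J.gamma1 cells 793 of 15819 genes (5.01%) were called lower and 864 (5.46%) higher, and 27.6% had an unadjusted p under 0.05. Of the 10 members, 1 was called lower, none was called higher, and 6 had an unadjusted p under 0.05. The CPM values of the groups did not overlap for 9 members, 7 with the knockdown higher, against 29.6% of all genes, and 2 with the knockdown lower, against 28.7%. The median log2 fold change of the members was 0.26, and that of all genes tested was 0.01.

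**Figure D1:**
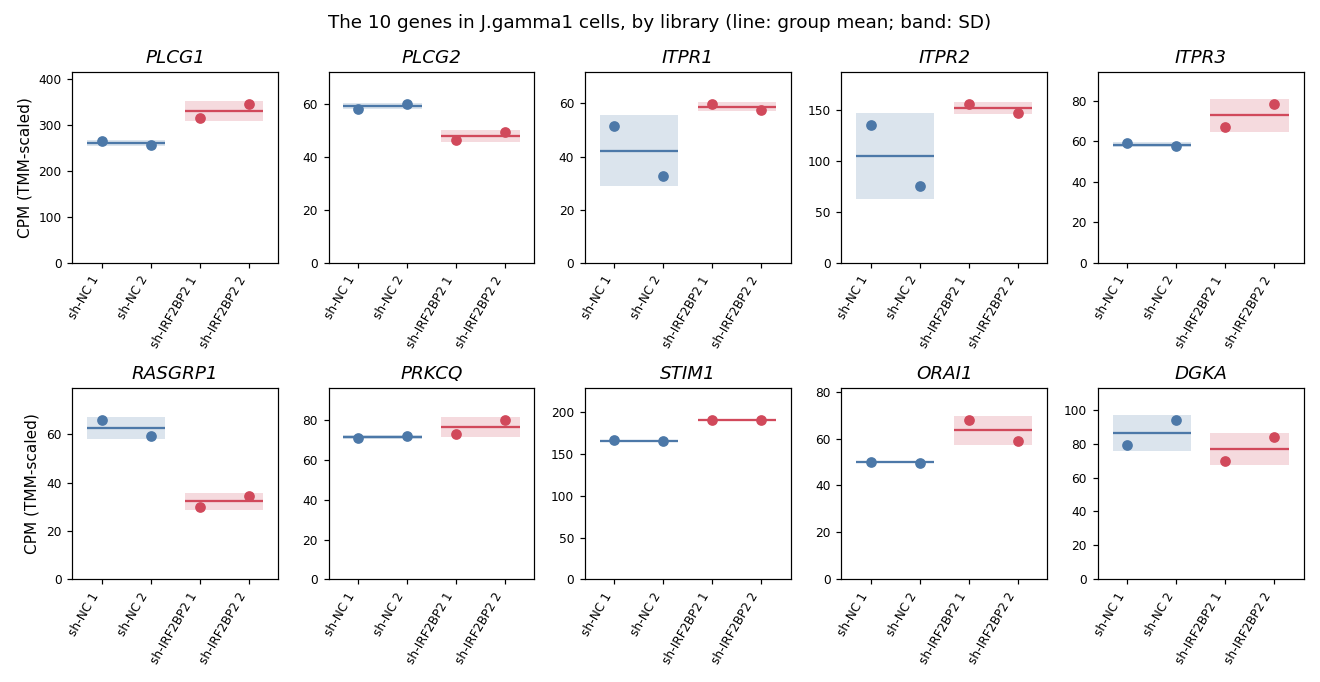
Level of each gene in J.gamma1 cells in CPM (linear axis from 0) for the 2 sh-NC libraries (blue) and the 2 sh-IRF2BP2 libraries (red), with the group mean as a line and the SD as a band. RASGRP1 drops from 66 and 59.4 CPM to 29.9 and 34.7 CPM, and the sh-NC libraries lie far apart for ITPR1 and ITPR2.

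RASGRP1 (ENSG00000172575, hg38 chr15:38488103-38565575, minus strand) had 1708 and 1843 counts in sh-NC and 870 and 1023 in sh-IRF2BP2. On the scaled level this was 66 and 59.4 CPM against 29.9 and 34.7 CPM, or 62.7 ± 4.64 against 32.3 ± 3.41 (SD, n = 2 each). Both knockdown libraries lay far below both controls. The log2 fold change was -0.96 (SE 0.136, 95% confidence interval -1.27 to -0.64), with an adjusted p of 0.00577 by edgeR's quasi-likelihood test. RASGRP1 was also called under every alternative tried, with adjusted p-values of 4.1e-07 by DESeq2 to 0.0234, and its log2 fold change lay between -1.07 and -0.88 when any 1 library was left out. A long non-coding RNA on the opposite strand, ENSG00000286786, shares 2137 exonic bases with RASGRP1 in GENCODE 44, and since the use of strand in counting is not stated, reads there cannot be assigned to either.

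The promoters of RASGRP1 and PLCG1 are shown because they belong to the member that fell and to the enzyme the line lacks as protein. Each run spans 250 bases before to 50 bases after the start site, 5′ to 3′ on the gene's strand. Human sequence was read from hg38 at the canonical GENCODE 44 transcript (chr15:38564765-38565064, minus strand, and chr20:41137293-41137592, plus strand), and mouse sequence was taken from RefSeq on GRCm38 (chr2:117342828-117343127, minus strand, and chr2:160731060-160731359, plus strand). Capitals mark the word TGNGGT on either strand, with N as any base. It is wider than the RUNX core, TGTGGT or TGCGGT.
RASGRP1: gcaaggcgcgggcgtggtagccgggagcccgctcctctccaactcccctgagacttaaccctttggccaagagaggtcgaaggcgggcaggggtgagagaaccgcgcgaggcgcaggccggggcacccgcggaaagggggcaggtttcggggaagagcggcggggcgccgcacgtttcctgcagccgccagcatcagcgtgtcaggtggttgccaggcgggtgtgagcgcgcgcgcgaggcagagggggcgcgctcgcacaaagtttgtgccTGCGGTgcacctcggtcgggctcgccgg
Rasgrp1: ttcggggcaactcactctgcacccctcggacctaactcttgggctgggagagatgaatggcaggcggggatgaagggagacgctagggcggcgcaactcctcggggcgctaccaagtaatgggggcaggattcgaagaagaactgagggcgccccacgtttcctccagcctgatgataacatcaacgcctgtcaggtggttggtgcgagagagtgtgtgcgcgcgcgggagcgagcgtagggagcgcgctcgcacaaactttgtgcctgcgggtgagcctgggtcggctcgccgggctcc
PLCG1: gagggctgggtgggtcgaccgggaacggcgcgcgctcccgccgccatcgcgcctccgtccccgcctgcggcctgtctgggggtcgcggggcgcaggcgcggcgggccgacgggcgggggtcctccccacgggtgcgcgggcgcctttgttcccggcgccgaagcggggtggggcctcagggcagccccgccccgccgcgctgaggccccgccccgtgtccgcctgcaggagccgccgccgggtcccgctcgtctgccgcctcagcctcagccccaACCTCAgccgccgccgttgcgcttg
Plcg1: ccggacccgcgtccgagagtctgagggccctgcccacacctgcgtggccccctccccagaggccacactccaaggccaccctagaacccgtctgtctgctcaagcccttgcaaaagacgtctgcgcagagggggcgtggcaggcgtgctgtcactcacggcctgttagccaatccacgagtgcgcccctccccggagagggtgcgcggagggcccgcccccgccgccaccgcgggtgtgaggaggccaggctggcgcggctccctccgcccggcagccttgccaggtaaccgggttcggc

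The human RASGRP1 window held 1 match, TGCGGT, starting at base 23 of the transcript. The human PLCG1 window held 1, starting at base 26, which reads TGAGGT on the opposite strand and is not the RUNX core. Neither mouse window held a match. The word TGNGGT occurs in 41.3% of 20033 human and 45.6% of 27025 mouse promoter windows of 300 bases. Among the human members ITPR1 held 1 match, which reads TGGGGT on the opposite strand and is not the RUNX core, and ITPR3 held 1, TGTGGT. None of the 10 human windows held the ETS word CGGAAG (25.4% of human windows) or the AP-1 word TGANTCA (5.44%). The windows of PLCG1 and PRKCQ were 81% G or C and that of DGKA 52%. Of the mouse members 9 had a RefSeq window. CGGAAG was the only form of the ETS site searched for, so other forms were not counted. These are letter matches in short windows and describe no binding.

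Within its family, RASGRP1 lost share. Per length of annotated exons, RASGRP1 made up 48.6% and 41.6% of RASGRP RNA in sh-NC and 29.7% and 32.8% in sh-IRF2BP2. RASGRP2, a calcium- and diacylglycerol-regulated exchange factor acting mainly on RAP1, made up 47.4% and 52.6% against 62.4% and 60.7%. The level of RASGRP2 itself did not pass the test, with 29.5 and 34.5 CPM in sh-NC and 28.8 and 29.5 CPM in sh-IRF2BP2 (log2 fold change -0.13, adjusted p = 0.583 by edgeR's quasi-likelihood test). RASGRP3 made up 2.88% ± 0.293 and 5.49% ± 1.27 of the family, and RASGRP4 1.99% ± 1.54 and 1.67% ± 0.224 (SD, n = 2 each). With 2 libraries a group these shares are given as a description, and with the longest transcript as the length RASGRP1 went from 45% ± 4.6 to 31% ± 2.3.

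**Figure D2:**
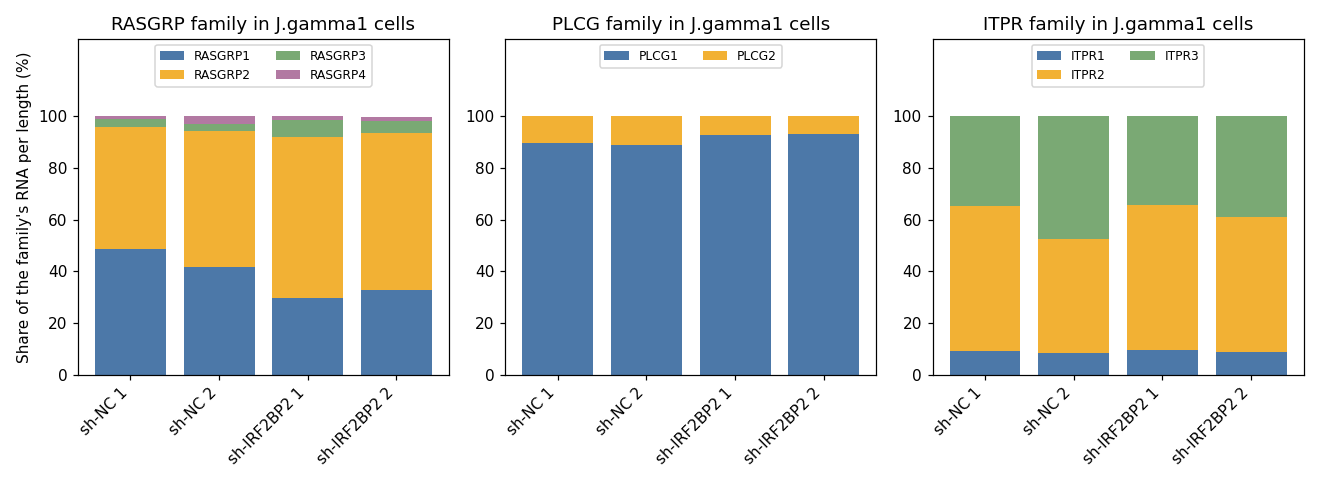
Share of each paralog in the RNA of its family per exon length, in percent, as stacked bars for the 2 sh-NC and 2 sh-IRF2BP2 libraries (J.gamma1 cells), for the RASGRP, PLCG and ITPR families. RASGRP1 shrinks from 48.6% and 41.6% to 29.7% and 32.8%, PLCG1 stays near 90% or above in each library, and ITPR2 is 56% in sh-NC replicate 1 and 44% in sh-NC replicate 2.

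The word GGTCTA in the canonical 3′ UTR was also counted for genes tested in J.gamma1 cells. Of 2017 genes with it, 288 (14.3%) were called lower in the knockdown, against 460 of 10535 (4.37%) without it. The word was not among the lists planned beforehand, and 3′ UTR length was not matched, so these shares are a description only. The 3′ UTR of RASGRP1 does not hold the word. Of the other members ITPR2 and PRKCQ do, and both had positive log2 fold changes.

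PLCG1 (ENSG00000124181, hg38 chr20:41136960-41196801, plus strand), the enzyme that couples the T cell receptor to IP3 and diacylglycerol, had 265 and 256 CPM in sh-NC and 316 and 346 CPM in sh-IRF2BP2. The groups did not overlap, and the difference was 261 ± 6.63 against 331 ± 21.7 CPM (SD, n = 2 each). The log2 fold change of 0.34 (SE 0.122, 95% confidence interval 0.06 to 0.63) did not pass, with an adjusted p of 0.114 by edgeR's quasi-likelihood test and 0.0505 by DESeq2. Of the exonic bases of PLCG1, 268 are shared with ZHX3 on the opposite strand.

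PLCG2 (hg38 chr16:81779279-81962685, plus strand), the paralog used mainly in B and myeloid cells, had 58.2 and 60 CPM in sh-NC and 46.3 and 49.5 CPM in sh-IRF2BP2. A long non-coding RNA on its own strand, ENSG00000289733, shares 4141 exonic bases with PLCG2, so its reads are uncertain there. The direction was thus the opposite of PLCG1, with a log2 fold change of -0.30 (95% confidence interval -0.57 to -0.03) and an adjusted p of 0.144 by edgeR's quasi-likelihood test. B cell markers summed to 65.9 and 82.5 CPM in sh-NC and 32.6 and 34.5 CPM in sh-IRF2BP2, of which CD79A made up 45.6 and 60.5 against 11.2 and 14 CPM. MS4A1 was at 0 in each library, and 1 of the 8 markers was called, lower; their part in the PLCG2 values was not tested. Per length, PLCG1 made up 89.6% and 89% of the RNA of both genes in sh-NC and 92.8% and 93% in sh-IRF2BP2, so PLCG2 supplied between 7% and 11% in every library. With the longest transcript as the length the sh-NC mean of PLCG1 was 83.9%.

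The 3 IP3 receptors, the channels through which IP3 empties the endoplasmic reticulum, were higher on average in the knockdown, but for ITPR1 and ITPR2 the sh-NC libraries disagreed. ITPR2 (hg38 chr12:26335352-26833194, minus strand) had 135 and 75 CPM in sh-NC and 156 and 147 CPM in sh-IRF2BP2, so that sh-NC replicate 1 lay nearer to the knockdown libraries than to its own replicate. The log2 fold change of ITPR2 was 0.53 (95% confidence interval -0.02 to 1.09), with an adjusted p of 0.196 by edgeR's quasi-likelihood test.

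ITPR1 (hg38 chr3:4493345-4847506, plus strand) had the same arrangement, with 51.7 and 32.9 CPM in sh-NC and 59.9 and 57.5 CPM in sh-IRF2BP2. The estimated log2 fold change was 0.48 (95% confidence interval 0.01 to 0.94), with an adjusted p of 0.172 by edgeR's quasi-likelihood test. Without sh-NC replicate 1 both genes were called higher, with log2 fold changes of 1.01 for ITPR2 and 0.83 for ITPR1, while 2751 genes in all were called in place of 1657. Without sh-NC replicate 2 neither was called, with log2 fold changes of 0.17 for ITPR2 (adjusted p = 0.489 in edgeR) and 0.18 for ITPR1 (adjusted p = 0.471 in edgeR). With all 4 libraries and the replicate number as a block both were called, at 0.59 (adjusted p = 0.0231 in edgeR) and 0.51 (adjusted p = 0.0295 in edgeR), so the call on these 2 receptors depends on the controls kept and on the model.

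ITPR3 (hg38 chr6:33620365-33696574, plus strand) had 59.1 and 57.5 CPM in sh-NC and 67.1 and 78.5 CPM in sh-IRF2BP2. Here the controls lay close together and below both knockdown libraries. The log2 fold change was 0.32 (95% confidence interval 0.03 to 0.61), with an adjusted p of 0.145 by edgeR's quasi-likelihood test. UQCC2 on the opposite strand shares 1025 exonic bases with ITPR3. Per length ITPR2 was the main receptor in J.gamma1 cells at 50% ± 8.47 of the family in sh-NC and 54.2% ± 2.98 in sh-IRF2BP2, ITPR3 followed at 41.1% ± 9.15 and 36.7% ± 3.4, and ITPR1 gave 8.84% ± 0.677 and 9.1% ± 0.424 (SD, n = 2 each). The ranges of ITPR2 and ITPR3 overlapped in sh-NC, and with the longest transcript as the length the ITPR1 share in sh-NC was 22.9%.

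For store-operated entry, ORAI1 (hg38 chr12:121626509-121643218, plus strand), the pore of the calcium release-activated channel, had 50.2 and 49.6 CPM in sh-NC and 67.9 and 59.1 CPM in sh-IRF2BP2. For ORAI1 the log2 fold change was 0.35 (95% confidence interval 0.06 to 0.64), with an adjusted p of 0.118 by edgeR's quasi-likelihood test. STIM1 (hg38 chr11:3854527-4093210, plus strand), the calcium sensor of the endoplasmic reticulum, had 167 and 166 CPM in sh-NC and 191 in each sh-IRF2BP2 library. The groups were tight and apart, yet the difference was small: a log2 fold change of 0.20 (95% confidence interval -0.06 to 0.46, adjusted p = 0.296 by edgeR's quasi-likelihood test). Per length ORAI1 gave 65.7% ± 0.319 of ORAI RNA in sh-NC and 69.7% ± 0.0055 in sh-IRF2BP2, and STIM1 77% ± 3.46 and 73.6% ± 0.498 of STIM RNA (SD, n = 2 each).

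The remaining genes that read or end the diacylglycerol signal had small differences. PRKCQ (hg38 chr10:6427143-6580301, minus strand), the kinase that links diacylglycerol to NF-kB in T cells, had 71.1 and 72.3 CPM in sh-NC and 73 and 80.2 CPM in sh-IRF2BP2. Its log2 fold change of 0.10 had a 95% confidence interval of -0.17 to 0.36 and an adjusted p of 0.639 by edgeR's quasi-likelihood test. DGKA (hg38 chr12:55927319-55954027, plus strand) had 79 and 94 CPM in sh-NC and 70 and 83.7 CPM in sh-IRF2BP2, the one member whose groups overlapped. Its log2 fold change was -0.17 (95% confidence interval -0.50 to 0.16, adjusted p = 0.481 by edgeR's quasi-likelihood test), and 353 of its exonic bases are shared with PYM1 on the opposite strand.

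PRKCQ gave 23.5% ± 2.24 of protein kinase C RNA per length in sh-NC, below PRKCA at 31.8% ± 3.64, and 21.3% ± 0.981 in sh-IRF2BP2 (SD, n = 2 each). PRKCB, a diacylglycerol- and calcium-dependent kinase, went from 11.7% ± 0.0474 to 16.3% ± 0.211. DGKA gave 22.9% ± 2.76 of diacylglycerol kinase RNA in sh-NC, below DGKZ at 29% ± 2.37, and 20.1% ± 1.78 in sh-IRF2BP2.

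**Figure D3:**
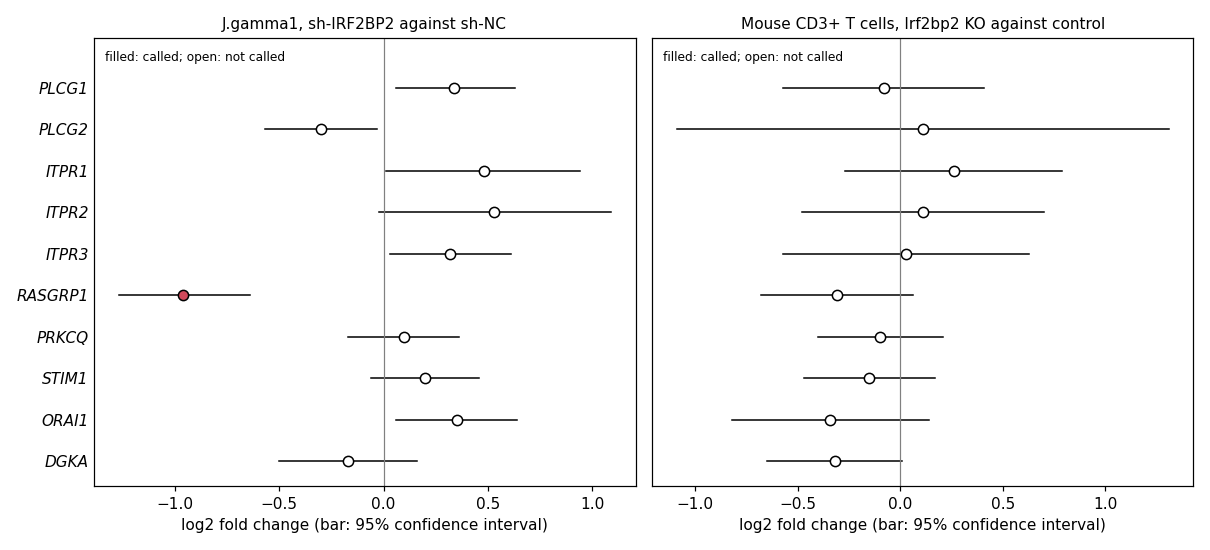
Log2 fold change of each member with its 95% confidence interval (bar), for sh-IRF2BP2 against sh-NC in J.gamma1 cells (left) and Irf2bp2 knockout against control in mouse T cells (right). RASGRP1 in J.gamma1 cells, at -0.96, is the only filled point, which marks a called gene; the open points were not called.

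Compared per length in TPM, which scales counts by exon length and library total, the members in sh-NC cells ran from PLCG1 at 104 ± 0.326 down to ITPR1 at 5.06 ± 1.45 (SD, n = 2). Between them came PRKCQ at 84.3 TPM, ORAI1 at 67.8, STIM1 at 53.3, DGKA at 33.1, ITPR2 at 28.9, ITPR3 at 22.8, RASGRP1 at 18.3 and PLCG2 at 12.5. The ranges of DGKA and ITPR2 overlapped, as did those of ITPR2 and ITPR3, and the other neighbours were apart. In sh-IRF2BP2 cells RASGRP1 fell to 9.57 ± 1.26 TPM, overlapping the range of PLCG2 at 10.3 ± 0.75, and PLCG1 stood at 135 ± 12.3 (SD, n = 2 each). The order depends on the length used: with the longest transcript STIM1 came second at 99.2 TPM, and RASGRP1 went from 26.9 to 14.3 TPM.

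In their pattern over the 4 J.gamma1 libraries, the listed genes closest to PLCG1 were DGKD, ITPR3 and PPP3CA (calcineurin catalytic subunit alpha), with root mean square differences of 0.0304, 0.0351 and 0.0352 log2 units after centring, among 88 candidates. In the 5 mouse libraries they were Prkcb at 0.0575, Pip5k1c at 0.0673 and Dgkq at 0.0692, among 92 candidates.

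Beyond the members, 84 further genes of the pathway were listed by role, of which 79 could be tested in J.gamma1 cells. Of these 8 were called higher, against 5.46% of all genes, and none lower, against 5.01%, and their median log2 fold change was 0.16, against 0.01 for all genes. The ryanodine receptors RYR1, RYR2 and RYR3, the other calcium release channels, were among the 5 too low to test.

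Upstream of the enzyme, 3 of 12 kinases and adaptors were called higher, against 5.46% of all genes, all of them adaptors of the LAT complex that holds PLC-gamma1. LAT had 30.4 and 29.3 CPM in sh-NC and 50 and 53.1 CPM in sh-IRF2BP2 (log2 fold change 0.79, adjusted p = 0.00843), GRAP2 50.5 and 48 against 79.2 and 84.1 CPM (0.73, adjusted p = 0.00882), and LCP2 110 and 96.4 against 181 and 157 CPM (0.71, adjusted p = 0.0163), each by edgeR's quasi-likelihood test. A long non-coding RNA on the strand of LAT, ENSG00000261067, shares 2112 of its exonic bases, so LAT reads are uncertain. The kinases of the list did not pass, with log2 fold changes of -0.17 for LCK and -0.26 for ZAP70 among them. GRB2 at 0.04 and VAV1 at -0.14 were not called either. Of the 12 genes 6 had positive and 6 had negative log2 fold changes, with a median of -0.01, against 0.01 for all genes.

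Around the substrate and product, 2 of 9 tested genes were called higher, against 5.46% of all genes. PIP5K1C, a kinase that makes PIP2, had 28.2 and 27.1 CPM in sh-NC and 63.1 and 66.2 CPM in sh-IRF2BP2 (log2 fold change 1.23, adjusted p = 0.00182 by edgeR's quasi-likelihood test). INPP5A, a phosphatase that removes IP3, had 20.7 and 23.2 against 34.7 and 35.3 CPM (log2 fold change 0.67, adjusted p = 0.0217 by the same test in edgeR). Among other phospholipase C enzymes 1 of 8, PLCD3, was called higher, against the same 5.46% of all genes. PLCD3 had 5.18 and 6.93 against 16.3 and 12.9 CPM (log2 fold change 1.27, adjusted p = 0.0149 in edgeR).

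Downstream of diacylglycerol 2 of 15 genes were called higher, against 5.46% of all genes, among them PRKCB. It had 127 and 114 CPM in sh-NC and 192 and 202 CPM in sh-IRF2BP2 (log2 fold change 0.71, adjusted p = 0.0116 in edgeR). None of the 15 tested genes of calcium entry, refilling and export was called in J.gamma1 cells by edgeR's quasi-likelihood test, none of the 14 calcium sensors and calcineurin genes and none of the 6 other diacylglycerol kinases. Their counts at an unadjusted p under 0.05 were 4, 8 and 3, where 27.6% of all genes pass that limit. For calls the shares over all genes were 5.46% higher and 5.01% lower.

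**Figure D4:**
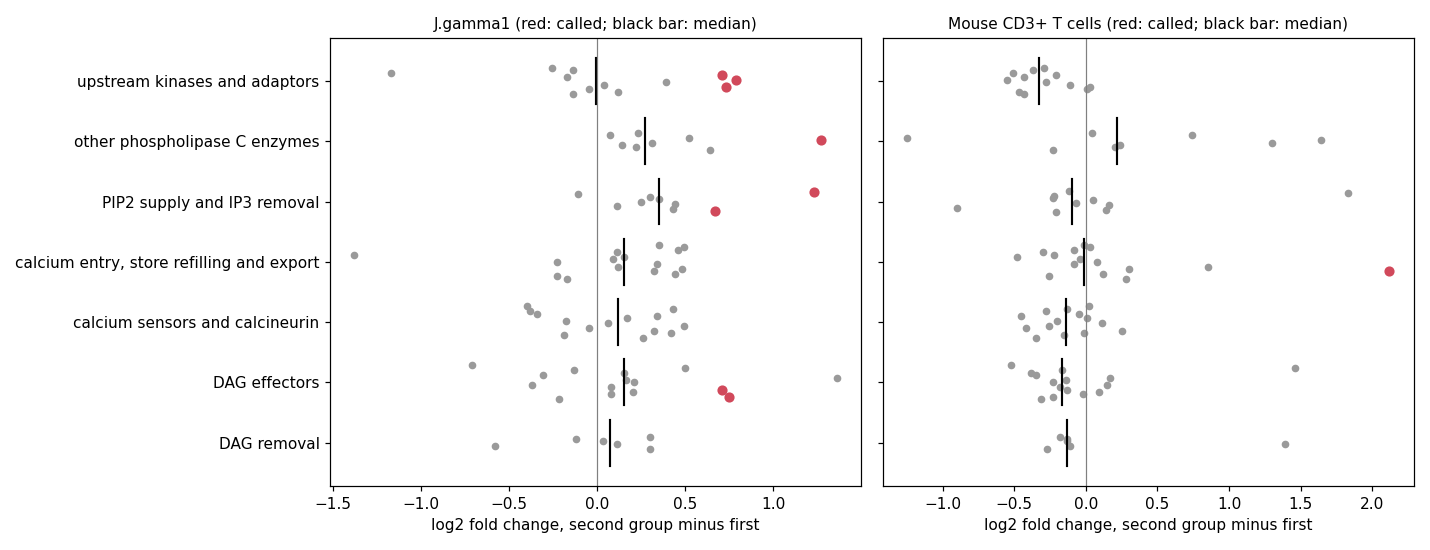
Log2 fold change of the other pathway genes by role, for J.gamma1 cells (left, sh-IRF2BP2 minus sh-NC) and mouse T cells (right, Irf2bp2 knockout minus control), with 1 point per tested gene of the roles drawn, called genes in red and the median of each role as a black bar. The ryanodine receptors, tested only in the mouse, are not drawn: Ryr1 at 0.84, Ryr2 at -3.35 and Ryr3 at 0.52, all at low CPM and not called. The 8 called genes in J.gamma1 cells are all higher, and in the mouse only Atp2b4, at 2.12, is called.

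In mouse splenic T cells 17 of 15350 genes (0.111%) were called lower and 379 (2.47%) higher, and 16.2% had an unadjusted p under 0.05. No member was called by edgeR's quasi-likelihood test or by DESeq2, and none had an unadjusted p under 0.05. The groups did not overlap for Rasgrp1 and Dgka, both lower in the knockout, against 17.8% of all genes, and for no member with the knockout higher, against 18.2%. The median log2 fold change of the members was -0.09, and that of all genes was -0.02. Control replicate 3 was the highest of the 5 libraries for 8 of the 10 members.

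Rasgrp1 had 384, 312 and 410 CPM in controls and 302 and 294 CPM in knockouts. Both knockout libraries lay below all controls, though the second control was close to them. The log2 fold change was -0.31 (95% confidence interval -0.68 to 0.06, adjusted p = 0.405 by edgeR's quasi-likelihood test). The interval leaves out the estimate of -0.96 in J.gamma1 cells but overlaps the 95% confidence interval of that estimate, -1.27 to -0.64. The difference between the 2 tables was not tested, because they come from different species and were counted separately.

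Dgka was by far the most abundant member in the mouse, with 1240, 1240 and 1440 CPM in controls and 1020 and 1080 CPM in knockouts. Its log2 fold change was -0.32 (95% confidence interval -0.65 to 0.01), with an adjusted p of 0.326 by edgeR's quasi-likelihood test and 0.182 by DESeq2. The summed T cell markers were lower in both knockout libraries too, and their part in the values of Rasgrp1 and Dgka was not tested.

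Plcg1 had 392, 350 and 540 CPM in controls and 382 and 425 CPM in knockouts, a spread among controls wider than the difference between groups. Its log2 fold change was -0.08 (95% confidence interval -0.57 to 0.41, adjusted p = 0.895 by edgeR's quasi-likelihood test) and became 0.12 without control replicate 3. Plcg2 had 15, 24 and 7.38 CPM in controls and 22.4 and 11.2 CPM in knockouts (log2 fold change 0.11, 95% confidence interval -1.09 to 1.31, adjusted p = 0.948 in edgeR). B cell markers summed to 179, 288 and 38.1 CPM in controls and 135 and 40.7 CPM in knockouts, and myeloid markers to 167, 439 and 48 CPM against 164 and 105 CPM. Both sums were highest and lowest in the same control libraries as Plcg2, and their part in the Plcg2 values was not tested.

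The mouse IP3 receptors followed the same spread, with control replicate 3 highest for each. Itpr1 had 89.7, 74.7 and 125 CPM in controls and 121 and 110 CPM in knockouts (log2 fold change 0.26, 95% confidence interval -0.27 to 0.79). Itpr2 had 203, 158 and 286 against 245 and 221 CPM (0.11, 95% confidence interval -0.48 to 0.70), and Itpr3 248, 202 and 366 against 259 and 297 CPM (0.03, 95% confidence interval -0.57 to 0.63). For all 3 the knockouts lay within the range of the controls.

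Orai1 had 24.6, 36.8 and 33.4 CPM in controls and 24.9 and 24.8 CPM in knockouts, with control replicate 1 as low as the knockouts (log2 fold change -0.34, 95% confidence interval -0.82 to 0.14). Stim1 had 121, 118 and 139 against 107 and 120 CPM (-0.15, 95% confidence interval -0.47 to 0.17), and Prkcq 433, 387 and 436 against 397 and 386 CPM (-0.10, 95% confidence interval -0.40 to 0.21). The intervals of Prkcq and Stim1 were among the narrowest, and none of these 3 genes passed.

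**Figure D5:**
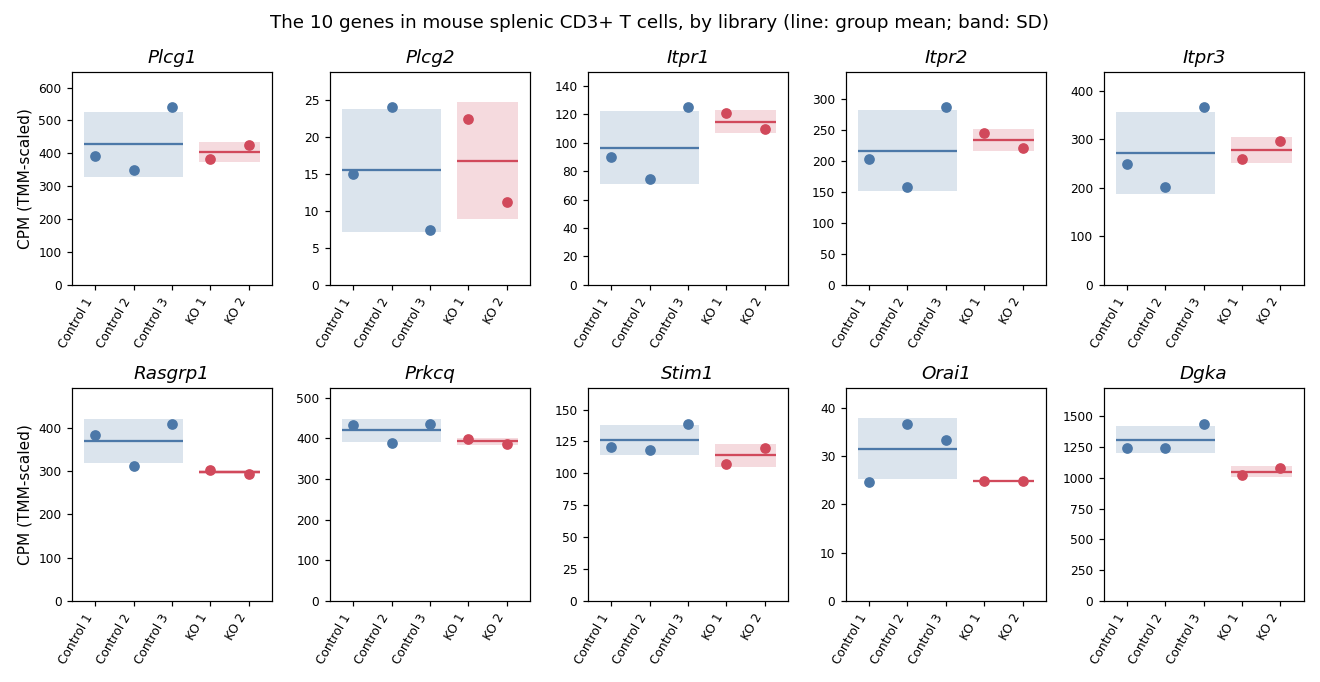
Level of each gene in mouse splenic CD3+ T cells in CPM (linear axis from 0) for 3 control libraries (blue) and 2 Irf2bp2 knockout libraries (red), with the group mean as a line and the SD as a band. Control 3 is the highest library for 8 of the 10 genes, and Rasgrp1 and Dgka are the 2 genes whose groups do not overlap.

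The makeup of the families differed between the mouse T cells and the human line when each was taken per length within its own annotation. Dgka gave 66.1% ± 0.469 of diacylglycerol kinase RNA in mouse controls, Prkcq 41.2% ± 1.97 of protein kinase C RNA and Rasgrp1 62.6% ± 3.84 of RASGRP RNA (SD, n = 3). Itpr3 was the main IP3 receptor at 60.3% ± 0.587, where ITPR2 had the larger mean in J.gamma1 cells. Orai2 gave 63.4% ± 7.61 and Orai1 22.6% ± 4.75 of ORAI RNA, and Stim1 51.4% ± 0.779 of STIM RNA. Plcg1 gave 93.3% ± 4.35 of the RNA of both Plcg genes, near its share in the human line. In knockout libraries Rasgrp1 stood at 64.1% and 55.9% of its family, within or near the control range of 59.5% to 66.9%. Species, tissue and culture all differ between the tables, so these cannot be told apart.

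In TPM the mouse controls ran from Dgka at 761 ± 115 to Plcg2 at 9.69 ± 4.7 (SD, n = 3), with Rasgrp1 at 183, Prkcq at 164 and Plcg1 at 152 next to Dgka. The ranges of Rasgrp1 and Prkcq overlapped, as did those of Prkcq and Plcg1 and of Plcg1 and Itpr3. Itpr3 stood at 84.4 TPM, Itpr2 at 40.7, Orai1 at 38, Stim1 at 33.7 and Itpr1 at 14.7, and among these the ranges of Itpr2 and Orai1, of Orai1 and Stim1, and of Itpr1 and Plcg2 overlapped.

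Of the 84 further pathway genes, 83 were tested in the mouse, with a median log2 fold change of -0.13, against -0.02 for all genes. Of the 83, 1 was called higher, against 2.47% of all genes, and none lower, against 0.111%. The called gene was Atp2b4, a calcium export pump of the plasma membrane also known from red cells, at 23.3, 20.2 and 28.8 CPM in controls and 99.9 and 109 CPM in knockouts (log2 fold change 2.12, adjusted p = 0.00711 by edgeR's quasi-likelihood test). The erythroid markers were higher in the same 2 libraries, and their part in the Atp2b4 values was not tested. Without control replicate 1 or without knockout replicate 2 its adjusted p in edgeR was 0.0564 or 0.077, at log2 fold changes of 2.11 and 2.03. The 12 upstream kinases and adaptors had a median of -0.33, against -0.02 for all genes, and none was called by edgeR's quasi-likelihood test. Of the 12, 8 had groups that did not overlap with the knockout lower, against 17.8% of all genes, and 5 had an unadjusted p under 0.05, against 16.2%. The list includes Cd3e and Cd247, which are also among the T cell markers, and those markers summed to 7690 to 8230 CPM in controls and 5870 to 6080 CPM in knockouts; their part in the values of this list was not tested.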

How the data were processed

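RNA-seq libraries of J.gamma1 cells and of mouse splenic CD3+ T cells were grouped by their labels. The authors aligned reads with HISAT2 2.2.0 (hg38 for human, mm10 for mouse, from the submitters' processing notes), quantified them with StringTie and deposited unnormalized counts, whole numbers for every gene in every library. How coverage became counts, and whether strand was used, is not given in the sources used here.

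Rows with identifiers in GENCODE 44 or M21 were kept (98% of human and 99.8% of mouse counts, rounded). Each table was fitted on its own in edgeR 4.0.16 under R 4.3.3 (filterByExpr, TMM factors, then glmQLFit and glmQLFTest), with the group as the sole term. The fold thresholds were a log2 fold change of 0.5 (human) and 1 (mouse). TPM and family shares were computed from union exon lengths. The settings varied were the tool (DESeq2 1.42.0), the scaling (RLE, upper quartile), the low-count filter (1 count somewhere, or 10 throughout), the count scale (divided by 2), the rows (annotated or all), the adjusted p alone, the replicate number as a block, and each library left out. Replicates differed by more than sampling noise (chi-square per gene of at least 18.2). The tests were checked on simulated counts.

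The members and lists were chosen with earlier results of these data known. Genes named are the members, their paralogs, called genes of the pathway list, the 3 genes most like PLCG1, the targeted gene and markers; other genes were chosen after their values were seen. Some genes that met this rule are not reported here.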

Additional observations from a re-analysis of the deposited data

Results flagged for a closer look

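LAT, the adaptor that holds PLC-gamma1 at the membrane, had differences of opposite sign in the 2 tables, and only the one in J.gamma1 cells passed the test. Its log2 fold change was 0.79 in J.gamma1 cells, where both sh-IRF2BP2 libraries (50 and 53.1 CPM) lay above both sh-NC libraries (30.4 and 29.3 CPM). In mouse T cells it was -0.55, where both knockout libraries (390 and 428 CPM) lay below the 3 controls (534, 784 and 473 CPM), with a 95% confidence interval of -1.10 to 0.01 and an adjusted p of 0.318 by edgeR's quasi-likelihood test. T cell markers summed to 7690 to 8230 CPM in controls and 5870 to 6080 CPM in knockouts, and their part in the Lat values was not tested. The difference between the tables was not tested.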

How the results depend on the processing

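RASGRP1 kept its direction and its call in every fit tried, and no mouse member was called in any. In J.gamma1 cells all genes called numbered 1657, 715 when 1 count somewhere was enough to keep a gene, and 837 (without sh-IRF2BP2 replicate 1) to 2751 (without sh-NC replicate 1) with 1 library left out, dropping sh-IRF2BP2 replicate 2 giving 1034. With 1 library left out members called ranged from 1 to 3 (the latter when sh-NC replicate 1 was dropped) and other pathway genes from 4 (sh-IRF2BP2 replicate 1 dropped) to 18 (sh-NC replicate 1 dropped), against 5 with that filter. These leave-one-out fits keep 1 lone sample in a group, assumed to vary like the others. In the mouse DESeq2 called 797 genes in place of 396 and 2 other pathway genes, and leaving out 1 library gave 7 (without control replicate 1) to 567 genes, with 50 and 10 when knockout replicate 1 or 2 was dropped, and 0 (control replicate 1 or knockout replicate 2 dropped) to 2 (control replicate 2 dropped) other pathway genes.

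Several uncalled mouse differences changed sign: with 1 library left out Plcg1 ranged from -0.19 to 0.12, Plcg2 from -0.49 (without knockout replicate 1) to 0.59, Itpr2 from -0.05 (without control replicate 2) to 0.37, and Itpr3 from -0.12 (without control replicate 2) to 0.30. Without control replicate 3 Plcg1 was 0.12 and Plcg2 -0.22, and Itpr3 was -0.02 and -0.09 when control replicate 1 and knockout replicate 2 were dropped in turn. With the longest transcript as the length, shares moved to 83.9% for PLCG1, 22.9% for ITPR1, 16.8% for Itpr1, 31.5% for Itpr2 and 51.6% for Itpr3. The cause of these changes was not tested.

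Replicate numbers are shared between groups, but with 2 pairs a table (correlation of same-numbered deviations 0.225 in J.gamma1 cells and -0.0369 in mouse cells) they were not taken to pair the samples. With the replicate number as a block 3 members were called in J.gamma1 cells, ITPR1 at 0.51 (adjusted p = 0.0295) and ITPR2 at 0.59 (adjusted p = 0.0231 in edgeR) besides RASGRP1, 12 other pathway genes and 2467 genes in all. In the mouse, on the 4 libraries numbered 1 and 2, the block gave 431 genes and no member, with Plcg1 at 0.12 and Plcg2 at -0.26; the same 4 libraries without the block, an alternative chosen after seeing the data, gave 389 genes, with Plcg1 at 0.12 and Plcg2 at -0.22.

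Of the pathway genes called in J.gamma1 cells, LCP2, PLCD3 and INPP5A were not called when 1 count somewhere was enough to keep a gene. INPP5A also lost its call whichever knockdown library was dropped, and LCP2, PLCD3 and PRKCB each lost it without 1 of them. LAT, GRAP2 and PIP5K1C were called in every fit.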

Other observations

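Across the members and the other listed pathway genes, 10 had groups that did not overlap in the same direction in both tables and 11 in opposite directions. Over all genes the groups did not overlap for 29.6% (higher) and 28.7% (lower) in J.gamma1 cells and for 18.2% and 17.8% in the mouse, so nothing is read from these counts. The first set held RASGRP1, LCK, ZAP70, VAV1 and BCL10, lower in both, and ATP2B4 and CAMK2D, higher in both. The second held LAT, ORAI2, PPP3CA, PPP3R1, PRKCH, DGKD and DGKZ, higher in J.gamma1 knockdown cells and lower in mouse knockout cells. Whether the tables differ was not tested for any of them.

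ORAI3, a paralog of ORAI1, had 2.01 and 1.64 CPM in sh-NC and 0.687 and 0.712 CPM in sh-IRF2BP2 (log2 fold change -1.38, adjusted p = 0.0733 by edgeR's quasi-likelihood test), a low level at which it gave 2.59% ± 0.354 of ORAI RNA per length in sh-NC and 0.832% ± 0.104 in sh-IRF2BP2 (SD, n = 2 each).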
